A study of Mus musculus with 22 samples.

Results

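Mouse embryonic stem cells were given a small interfering RNA (siRNA) against Rpl11 and another against Rpl14. The transcripts of cells with both were set against those of cells with siRpl11 alone. The labels do not say whether both siRNAs were given at the same time. Of the 22 libraries of the series, 6 carry this comparison. In 1 deposited table there were 2 libraries with siRpl14+siRpl11 and 2 with siRpl11, in which siNT took the place of siRpl14 (set 1), and in another there was 1 library of each (set 3). The siRpl14 change with no siRpl11 present was read from the other 4 libraries of set 1, 2 with siRpl14 (given with siNT) and 2 with siNT, taken here as the control since the labels do not spell out NT. The cells were E14, an unmodified mouse embryonic stem cell line, grown with leukemia inhibitory factor on gelatin and harvested 3 days after transfection. Messenger RNA was made into stranded libraries, and the deposited values are FPKM, fragments scaled by library size and by transcript length, so levels can be set beside each other between genes. The split into sets follows the tables and the style of the titles, and nothing says that replicates were separate cultures, so the p-values measure the spread between these libraries, which may be technical.

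Rpl14 and Rpl11 are proteins of the large ribosomal subunit. Loss of such proteins can disturb the nucleolus. In that stress, Rpl11 together with Rpl5 and 5S ribosomal RNA binds Mdm2, the ubiquitin ligase that marks p53 for destruction, and p53 then activates genes of arrest, death and repair. Embryonic stem cell cultures also hold a few cells of a 2C-like state, in which the transcription factor Dux turns on genes of the 2-cell embryo such as the Zscan4 family. Rpl11 is thus known both as a ribosome component and as a part of the p53 signal, and the comparison asks how the cells answered to siRpl14 when Rpl11 was low.

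Rpl14 has a processed pseudogene that shares nearly all of its coding sequence, and the members of the Zscan4 family are close copies of each other, so fragments of one can be assigned to the other. The stretches below show how little there is to tell them apart (GENCODE M21 transcripts on GRCm38, a later build than the mm9 of the deposited values). Capitals mark the bases that differ within each pair. Rpl14 (chr9:120571444-120574654, plus strand) and Rpl14-ps1 (chr7:45324965-45325617, plus strand) were identical at 644 of 648 aligned coding bases, or 99.4%, and are shown over bases 334 to 423 of the Rpl14 coding sequence. Zscan4c (chr7:11005745-11010547, plus strand) and Zscan4d (chr7:11161374-11166159, minus strand) were identical at 1483 of 1518 coding bases, or 97.7%, and are shown over bases 676 to 765, on the coding strand.
Rpl14: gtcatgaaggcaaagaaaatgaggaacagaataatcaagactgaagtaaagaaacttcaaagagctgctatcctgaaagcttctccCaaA
Rpl14-ps1: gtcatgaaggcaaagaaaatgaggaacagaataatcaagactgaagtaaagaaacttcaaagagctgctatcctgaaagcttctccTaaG
Zscan4c: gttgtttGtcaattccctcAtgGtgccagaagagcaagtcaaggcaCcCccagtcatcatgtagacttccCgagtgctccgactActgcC
Zscan4d: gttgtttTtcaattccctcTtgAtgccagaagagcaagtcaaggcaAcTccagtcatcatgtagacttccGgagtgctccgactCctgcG
Values of such copies are therefore given as uncertain between the members of a pair.

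The siRNA targets were low where the labels say so. Rpl14 was at 232 and 524 FPKM in the siRpl14+siRpl11 libraries, against 1465 and 1447 FPKM in siRpl11. Both siRpl14+siRpl11 values lay far below both siRpl11 values, at 15.9% and 36.0% of the siRpl11 mean, a log2 difference of -2.06 (95% interval -3.03 to -1.09). With siRpl14 alone, Rpl14 was at 893 and 402 FPKM, against 1550.3 and 1417 FPKM in siNT, so the lowest Rpl14 level of set 1 was in a siRpl14+siRpl11 library and the highest level under siRpl14 was in a siRpl14 library. Rpl14-ps1 was likewise lower, at 5.71 and 13.7 FPKM in siRpl14+siRpl11 and 36.8 and 39.6 FPKM in siRpl11.

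Rpl11 was low in both groups and the groups overlapped. It was at 98.4 and 249 FPKM in siRpl14+siRpl11 and 260.1 and 113 FPKM in siRpl11, against 681 and 624 FPKM in siRpl14 and 829 and 661 FPKM in siNT, and siRpl14 added a log2 difference of -0.13 (95% interval -1.20 to 0.94). Replicate 1 of siRpl14+siRpl11 had the lower Rpl14 and the lower Rpl11 of its pair. In set 3, Rpl14 was at 217 FPKM in siRpl14+siRpl11 against 1018 FPKM in siRpl11, Rpl14-ps1 at 32.6 against 146 FPKM, and Rpl11 at 199 against 161 FPKM.

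**Figure D1:**
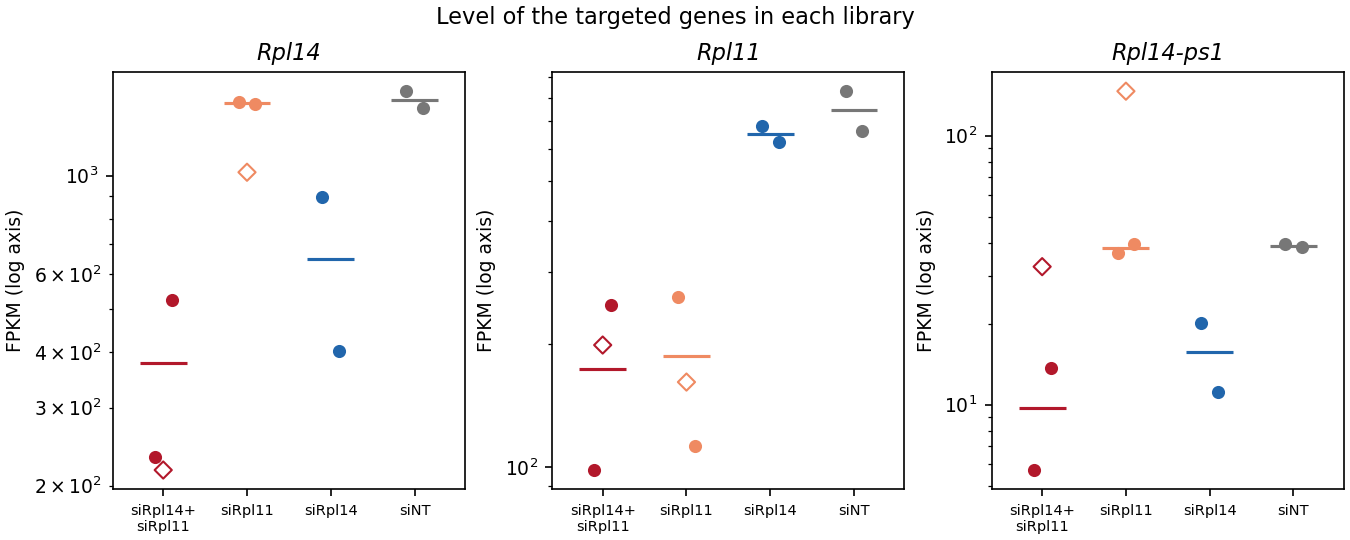
FPKM (log axes) of Rpl14, Rpl11 and Rpl14-ps1 in each library, with filled circles for the 2 libraries per group of set 1, bars for their means and open diamonds for the single libraries of set 3. Rpl14 and Rpl14-ps1 were lower in each siRpl14+siRpl11 library than in each siRpl11 library of the same set, and Rpl11 overlapped between those groups.

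The 12 markers of embryonic stem cells summed to 6648 to 6673 FPKM in siRpl14+siRpl11 and 7374 to 7826 FPKM in siRpl11, without overlap. Their lowest mean was 31.2 FPKM in siRpl14+siRpl11 and 38.2 FPKM in siRpl11. The sums lean on Dppa5a, the highest of the 12, with means of 3176 FPKM in siRpl14+siRpl11 and 3629 FPKM in siRpl11. Not every marker was without overlap, since Utf1 overlapped between the groups. Of 20 fibroblast feeder markers, 16 were under 1 FPKM in both libraries of either group, the 20 summing to 29.7 to 36.9 FPKM in siRpl14+siRpl11 and 29.2 to 34.8 FPKM in siRpl11. A value of 0 was listed for 31.3 to 31.6% of the table's genes in these 4 libraries, and 55.4% and 56.2% in the siRpl14+siRpl11 and siRpl11 libraries of set 3, where low values are resolved less finely. Read depth is unknown from FPKM.

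With Rpl11 depleted, siRpl14 brought no gene past the threshold, while on its own it changed a large share of them. Of 12129 genes that reached 1 FPKM in 2 or more of the 8 libraries, 0 (0%) passed with siRpl14 added to siRpl11 (limma on log2(FPKM + 1), adjusted p under 0.05; smallest adjusted p = 0.999911), whereas 3822 (31.5%) passed with siRpl14 against siNT, 2191 higher (18.1%) and 1631 lower (13.4%). At an unadjusted p under 0.05 there were 387 genes (3.19%), 267 higher (2.2%) and 120 lower (0.989%). Other settings of the same test gave 0 or 1 gene. The siRNA target Rpl14, at 15.9% and 36.0% of the siRpl11 mean in siRpl14+siRpl11, was itself among the genes that did not pass. The test thus missed a known difference of that size, and a count of 0 does not mean no response. Fitted differences reached 2-fold in 26 genes with siRpl14+siRpl11 against siRpl11 and in 872 genes with siRpl14 against siNT. The log2(FPKM + 1) scale understates the changes of genes with low values.

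A miss of the threshold does not show that nothing changed, and the intervals say how much could have been missed. The 95% interval of the difference between siRpl14+siRpl11 and siRpl11 had a median half-width of 0.34 (log2), and for 97.5% of the genes it lay within -1 and 1. Among the 512 genes that siRpl14 raised at least 2-fold over siNT, 460 (89.8%) had an interval in siRpl14+siRpl11 minus siRpl11 that stopped short of a 2-fold rise, and 0 had a fitted rise of that size. Among the 312 that siRpl14 lowered at least 2-fold, the interval stopped short of a 2-fold fall in 286 (91.7%), and the 2 with a fitted fall of that size were Rpl14 and Rpl14-ps1.

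Genes changed at least 2-fold by siRpl14 had medians far nearer 0 with Rpl11 depleted. The 512 genes had a median log2 difference of 0.155 in siRpl14+siRpl11 minus siRpl11 and 1.29 in siRpl14 minus siNT, and 84.2% of them were above 0 with Rpl11 depleted, against 60.1% of all genes tested. In 40.2% of them both siRpl14+siRpl11 libraries lay above both siRpl11 libraries, against 21.1% of all genes. The 312 lowered genes had medians of -0.005 and -1.18, and 51.9% of them were below 0 with Rpl11 depleted, against 39.9% of all genes, while both siRpl14+siRpl11 libraries lay below both siRpl11 libraries in 7.69% of them, against 10.4%. The median of all genes with siRpl14 added to siRpl11 was 0.03. These comparisons share no library. The 512 and 312 genes were, however, chosen by their siRpl14 minus siNT difference, so their medians there lie beyond 2-fold by choice. How much of the shift towards 0 comes from that choice was not tested. Across all genes the 2 differences correlated at r = 0.096, a description across genes, which are not independent replicates.

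**Figure D2:**
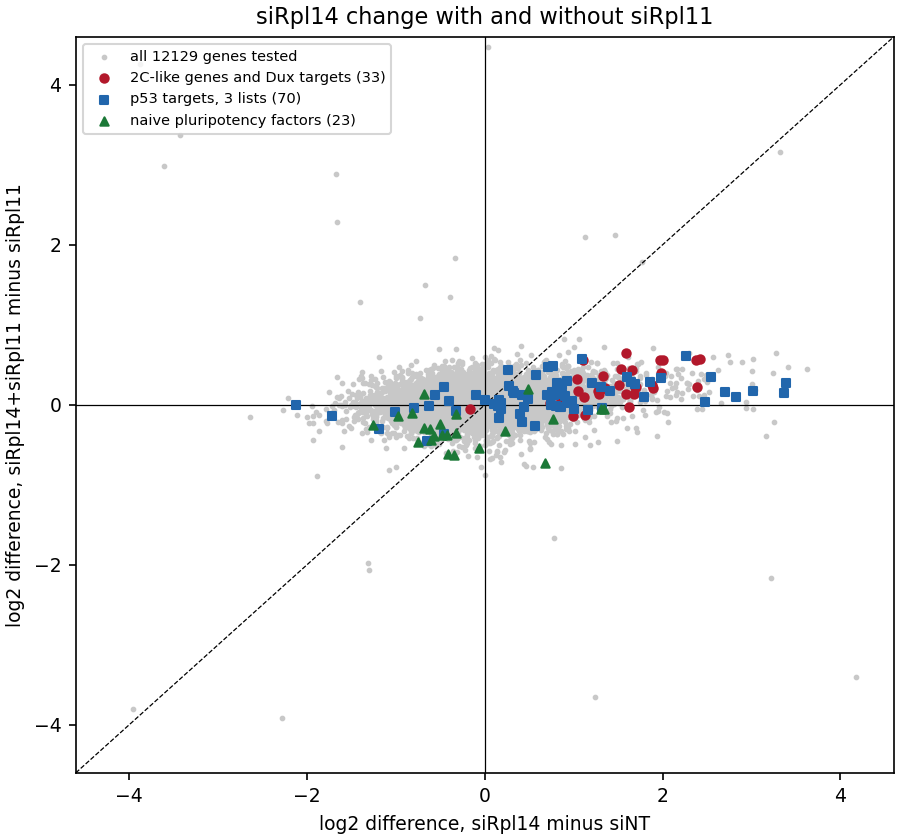
Log2 difference of each of 12129 genes with siRpl14 added to siRpl11 (vertical) against that with siRpl14 alone over siNT (horizontal), where a dot is 1 gene, the dashed line marks equal differences and 3 genes lie outside the axes. The cloud runs along the horizontal axis, and the 2C-like genes, on its right, sit slightly above 0 on the vertical axis.

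The difference between the 2 backgrounds was tested directly as an interaction, the siRpl14 change with siRpl11 minus the siRpl14 change without it. It passed in 544 genes (4.49%; limma, adjusted p under 0.05, as for every adjusted p given below), 322 negative (2.65%) and 222 positive (1.83%). The siRpl14 minus siNT difference is a term of the interaction, so the calls of both rest in part on the same 4 libraries. Each of the 35 genes picked by the naming rule that passed missed the threshold under at least 1 other setting, with no change of sign. Fits without 1 library leave 1 library in a group, and some of them called few genes at all. These misses therefore say little about single genes. The interaction count changed widely when single libraries were left out, and how far this came from the loss of a replicate was not tested. It was 2 without siNT replicate 2, 3 without siNT replicate 1, 6 without siRpl14+siRpl11 replicate 2, 20 and 27 without replicates 1 and 2 of siRpl11, 36 without siRpl14 replicate 2, 273 without siRpl14+siRpl11 replicate 1 and 1199 without siRpl14 replicate 1. The count for siRpl14 against siNT also depended on single libraries, at 791 without siRpl14 replicate 2 and at 752 and 1419 without replicates 1 and 2 of siNT.

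Genes with the most negative interaction stood high with siRpl14 alone, low in siNT and, except for Nkx2-9, in between in both groups with siRpl11. Mlana, a gene of the pigment cell lineage, was at 7.71 and 7.62 FPKM in siRpl14+siRpl11 and 11.2 and 9.65 FPKM in siRpl11, against 18.7 and 35.6 FPKM in siRpl14 and 2.81 and 1.38 FPKM in siNT (interaction -3.55, adjusted p = 0.0183). Perp, a p53 target gene of cell death, was at 42.9 and 32.5 FPKM in siRpl14+siRpl11 and 29.4 and 32.2 FPKM in siRpl11, against 87.4 and 210.4 FPKM in siRpl14 and 14.4 and 10.1 FPKM in siNT (interaction -3.11, adjusted p = 0.0269). In both genes the siRpl14+siRpl11 and siRpl11 values lay between the siNT and siRpl14 values. Cd80, a costimulatory ligand of T cells, had an interaction of -3.22, adjusted p = 0.0302. Ms4a10, a membrane protein gene, had one of -3.18, adjusted p = 0.0144. The homeobox gene Nkx2-9 had one of -3.08, adjusted p = 0.0269, and its siRpl14 values (14.9 and 29.5 FPKM) overlapped those of siRpl14+siRpl11 (18.4 and 12.6 FPKM) and siRpl11 (11.96 and 20.9 FPKM).

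Genes with the most positive interaction were high in siNT and low in the other 3 groups. Nupr1, a stress-response regulator, was at 9.09 and 14.3 FPKM in siRpl14+siRpl11 and 16.4 and 9.995 FPKM in siRpl11, against 15.5 and 6.68 FPKM in siRpl14 and 72.2 and 65.98 FPKM in siNT (interaction 2.48, adjusted p = 0.0418). Vegfa, a growth factor of blood vessels, was at 4.72 and 7.96 FPKM in siRpl14+siRpl11 and 8.14 and 5.73 FPKM in siRpl11, and at 8.65 and 6.15 FPKM in siRpl14 and 32.6 and 37.4 FPKM in siNT (interaction 1.98, adjusted p = 0.0313). In both, the groups siRpl14+siRpl11, siRpl11 and siRpl14 overlapped and siNT stood apart. Tgm2, a transglutaminase gene (interaction 2.12, adjusted p = 0.0395), Gchfr, a regulator of GTP cyclohydrolase (interaction 2.01, adjusted p = 0.0258), and Slc30a3, a zinc transporter gene (interaction 1.93, adjusted p = 0.0467), were likewise highest in siNT.

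The p53 pathway was the first gene group of interest, since Rpl11 takes part in its control. With Rpl11 depleted, siRpl14 did not move Mdm2, itself a p53 target, beyond its spread. It was at 156 and 121 FPKM in siRpl14+siRpl11 and 114 and 159 FPKM in siRpl11, and at 244 and 410.3 FPKM in siRpl14 and 66.01 and 47.7 FPKM in siNT. The siRpl14+siRpl11 and siRpl11 values overlapped and lay between those of siNT and siRpl14, with a difference of 0.03 (95% interval -0.61 to 0.67) and an interaction of -2.44, adjusted p = 0.0258. Trp53, which encodes p53, was at 589.6 and 428 FPKM in siRpl14+siRpl11 and 432 and 631 FPKM in siRpl11, all above the 257 and 396 FPKM in siRpl14 and 143 and 177 FPKM in siNT, and the difference with siRpl14 added was -0.06 (95% interval -0.66 to 0.55). Cdkn1a, the gene of the p21 inhibitor of cyclin-dependent kinases, was at 67.1 and 52.2 FPKM against 44.5 and 56.98 FPKM in siRpl11, 0.23 (95% interval -0.42 to 0.88).

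As lists, 0 p53 targets passed with siRpl14 added to siRpl11. Of 26 genes of arrest and feedback, 17 were above 0 (median 0.04, and -0.02 after median-ratio rescaling), where 16 rose and 4 fell with siRpl14 against siNT. Of 17 genes of cell death, 13 were above 0 (median 0.17), against 10 that rose with siRpl14 alone, and of 27 genes of repair and metabolism 18 were above 0 (median 0.12), against 14 that rose and 4 that fell. With siRpl14 against siNT, 18.1% of all genes rose and 13.4% fell. With siRpl14 added to siRpl11, the median of all genes was 0.03, and 60.1% of them were above 0. Single libraries set these medians, since that of the death genes was 0.03 without siRpl14+siRpl11 replicate 1 and that of the repair genes 0.03 without siRpl14+siRpl11 replicate 2. The interaction was negative in 4, 3 and 4 members of the 3 lists (background 2.65%) and positive in 0, 0 and 1 (background 1.83%).

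In a few p53 targets the siRpl14+siRpl11 and siRpl11 values did not overlap and the interval excluded 0. Ei24, a p53-induced gene of the endoplasmic reticulum, was at 63.01 and 61.4 FPKM in siRpl14+siRpl11, both above 45.4 and 43.1 FPKM in siRpl11, a difference of 0.48 (95% interval 0.23 to 0.74). Trp53i11 was at 20.9 and 20.5 against 15.3 and 14.9 FPKM, 0.43 (95% interval 0.13 to 0.73), and Tap1, a peptide transporter of antigen presentation, at 6.51 and 4.87 against 3.06 and 3.70 FPKM, 0.60 (95% interval 0.03 to 1.18). Tap1 was at 12.3 and 19.2 FPKM in siRpl14 against 3.05 and 1.87 FPKM in siNT, and its interaction was -1.66, adjusted p = 0.0421. In the other direction Sesn1, an inhibitor of mTOR signalling, was at 4.30 and 5.25 against 5.95 and 6.91 FPKM, -0.36 (95% interval -0.70 to -0.03). None of these passed after adjustment over all genes. In set 3 Ei24 was at 35.4 against 35.7 FPKM and Tap1 at 3.59 against 3.69 FPKM, so the single pair did not show these differences, whereas Trp53i11 was at 7.27 against 5.3997 FPKM and Sesn1 at 2.26 against 5.497 FPKM.

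With all 8 libraries fitted, the 2C-like genes were the list furthest above 0 with siRpl14 added to siRpl11, by a small amount. Another list led when any 1 of the 4 siRpl14+siRpl11 and siRpl11 libraries was left out. Without replicate 1 of siRpl14+siRpl11 or siRpl11, glycolysis and hypoxia genes led (0.31 and 0.35, against 0.20 and 0.24 for the 2C-like genes). Without replicate 2 of either, primitive endoderm markers led (0.32 and 0.27, against 0.30 and 0.19). At a pseudocount of 5, p53 targets of cell death led (0.12 against 0.11). Of the 50 2C-like genes 33 were tested, 25 of which met the filter within the siRpl14+siRpl11 and siRpl11 libraries themselves. The other 8 met it only with siRpl14 or siNT libraries counted, so their siRpl14 change was favoured by the filter and they could show little with siRpl11 present. The median of the 33 was 0.21 with siRpl14 added to siRpl11 and 1.51 with siRpl14 against siNT, where 32 rose (background 18.1%). In 24 of the 33 both siRpl14+siRpl11 libraries lay above both siRpl11 libraries and in 2 below (background 21.1% and 10.4%), and 29 were above 0. At an unadjusted p under 0.05, 7 were higher and 0 lower (background 2.2% and 0.989%), and 0 passed after adjustment. Without 1 library the unadjusted count was 3 (siRpl11 replicate 2) or 4 (either siRpl14+siRpl11 library), while the median stayed between 0.19 and 0.30. With 1 siRpl14 library left out, whichever it was, 25 members were tested, 24 of them above 0 (median 0.22). Summed over the 43 genes of the list in the table, the level was 165 to 192 FPKM in siRpl14+siRpl11 and 143 to 150.2 FPKM in siRpl11, against 441 to 462 FPKM in siRpl14 and 134 to 145 FPKM in siNT.

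Zscan4d was at 9.42 and 8.93 FPKM in siRpl14+siRpl11 and 7.02 and 8.11 FPKM in siRpl11, against 35.7 and 36.2 FPKM in siRpl14 and 11.3 and 12.7 FPKM in siNT. Both siRpl14+siRpl11 values lay above both siRpl11 values and below both siNT values, a difference of 0.25 (95% interval -0.02 to 0.52) where siRpl14 alone gave 1.51 (interaction -1.26, adjusted p = 0.0211). Zscan4c was at 8.41 and 7.73 against 7.42 and 6.68 FPKM, 0.17 (95% interval -0.11 to 0.46), with an interaction of -1.11, adjusted p = 0.0258. Dux, the activator of this program, was under 1 FPKM in all 4 libraries, at 0.524 and 0.687 against 0.482 and 0.296 FPKM, 0.21 (95% interval -0.13 to 0.55), and at 1.45 and 1.11 FPKM in siRpl14. The Usp17-like genes, deubiquitinases of a multicopy family, had the largest differences of the list. Usp17le was at 5.29 and 4.16 against 3.14 and 2.18 FPKM, 0.65 (95% interval 0.23 to 1.07). Usp17lb was at 4.15 and 3.38 against 2.09 and 2.34 FPKM, 0.56 (95% interval 0.25 to 0.88), and at 15.3 and 14.01 FPKM in siRpl14 against 2.00 and 2.03 FPKM in siNT (interaction -1.81, adjusted p = 0.0144). Usp17la was at 3.04 and 2.92 against 1.75 and 1.64 FPKM. As close copies they are not separate observations. At the other end, Gm21319 was at 0.217 and 0.156 against 0.295 and 0.309 FPKM and Tdpoz4 at 0.513 and 0.465 against 0.521 and 0.508 FPKM. In set 3 only 4 members of the list had 5 FPKM in either library. In a bulk sample, a change in the number of 2C-like cells and a change in the RNA per such cell cannot be told apart.

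**Figure D3:**
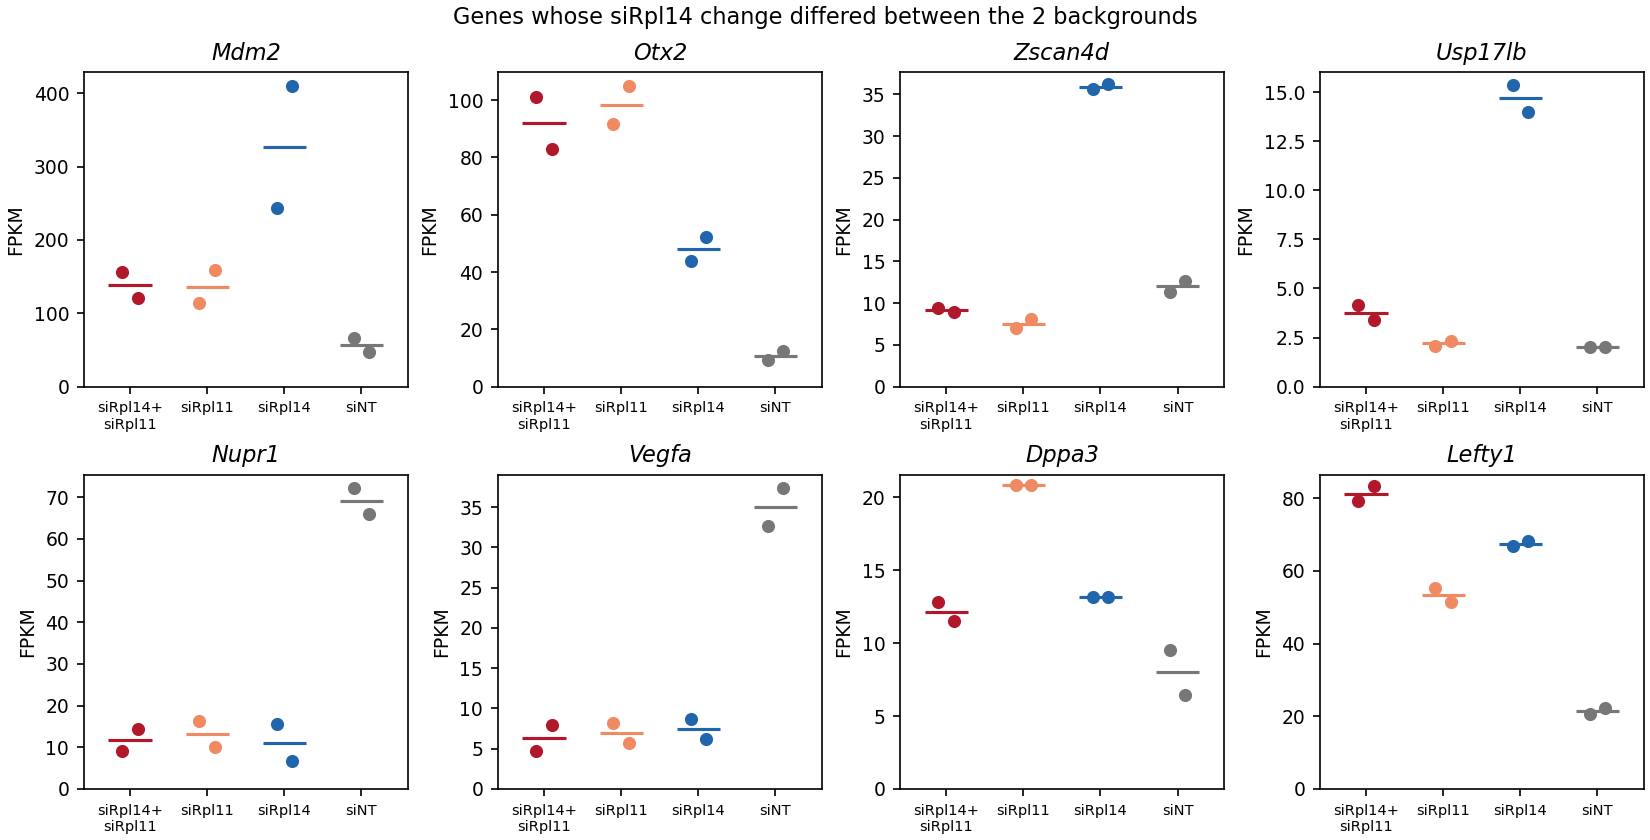
FPKM in each library of set 1 (dots, 2 per group; bars, means) for 8 genes whose interaction passed the threshold. In Mdm2, Otx2, Nupr1 and Vegfa the siRpl14+siRpl11 and siRpl11 libraries overlap, in Zscan4d, Usp17lb and Lefty1 siRpl14+siRpl11 lies above siRpl11, and in Dppa3 below it.

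With all 8 libraries fitted, the list furthest below 0 was that of the naive pluripotency genes. Without siRpl14+siRpl11 replicate 1, primed epiblast genes stood lower (-0.24, against -0.17 for the naive genes). Without siRpl11 replicate 1 core pluripotency factors did (-0.28 against -0.26), and without siRpl11 replicate 2 glycolysis and hypoxia genes did (-0.30 against -0.25). Naive pluripotency factors maintain the ground state of embryonic stem cells, and 21 of the 23 tested were lower in siRpl14+siRpl11 than in siRpl11 by their fitted difference, with a median of -0.30. Both siRpl14+siRpl11 libraries lay below both siRpl11 libraries in 13 of them (background 10.4%), and 9 were lower at an unadjusted p under 0.05 (background 0.989%), but 0 passed after adjustment. With siRpl14 alone over siNT the median was -0.42, with 5 higher and 8 lower (background 18.1% and 13.4%). The interaction passed in 3 of the 23, all of them negative (background 2.65%). Leaving out siRpl14+siRpl11 replicate 1, the library with the lowest Rpl14 and Rpl11, took the median to -0.17 and the unadjusted count to 2. The count was 4 without siRpl11 replicate 2. The part of the depth of knockdown in this result was not tested.

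Dppa3, a maternal factor that protects methylation marks in the zygote, led the list at 12.8 and 11.5 FPKM in siRpl14+siRpl11 against 20.8 and 20.9 FPKM in siRpl11, -0.73 (95% interval -1.10 to -0.36). Its values lay the other way without siRpl11, at 13.2 and 13.2 FPKM in siRpl14 against 9.54 and 6.46 FPKM in siNT, and its interaction was -1.41, adjusted p = 0.0265. Nr0b1, which encodes the nuclear receptor Dax1, was at 45.1 and 48.4 against 62.02 and 85.03 FPKM, -0.63 (95% interval -1.04 to -0.21). Zfp42, which encodes Rex1, a marker of naive cells, was at 186 and 300.5 against 382 and 344 FPKM, -0.61 (95% interval -1.13 to -0.09), and the Krüppel-like factor gene Klf2 at 131 and 221 against 253 and 243 FPKM, -0.54 (95% interval -1.08 to 0.00). In all 4 genes both siRpl14+siRpl11 values were below both siRpl11 values. In Zfp42 and Klf2 replicate 1 of siRpl14+siRpl11 was much the lower of its pair. The members above 0 were Stat3, the effector of leukemia inhibitory factor, at 42.2 and 37.5 against 33.7 and 35.6 FPKM, and its target Socs3 at 50.04 and 68.6 against 62.3 and 45.6 FPKM.

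The core pluripotency factors leaned the same way by less. Of 20 genes 17 were below 0 (median -0.12), 7 with both siRpl14+siRpl11 libraries below both siRpl11 libraries (background 10.4%), and 0 passed. Nanog was at 121 and 182 FPKM in siRpl14+siRpl11 against 227 and 191 FPKM in siRpl11, -0.49 (95% interval -0.92 to -0.05). Pou5f1, which encodes Oct4, was at 1086 and 948 against 1088 and 1245 FPKM, -0.20 (95% interval -0.47 to 0.07), and its partner Sox2 at 256 and 294 against 294 and 323 FPKM, -0.16 (95% interval -0.41 to 0.08), where replicate 2 of siRpl14+siRpl11 reached the lower siRpl11 value. Fgf4 was at 75.5 and 94.2 against 113 and 107 FPKM, -0.38 (95% interval -0.78 to 0.02), and Dppa5a, among the most abundant stem cell transcripts, at 3233 and 3119 against 3473 and 3786 FPKM. Utf1 was at 470.3 and 435 against 382 and 485 FPKM and Trim71 at 68.4 and 64.1 against 63.9 and 65.9 FPKM, each overlapping. The median rested on single libraries, at -0.03 without siRpl11 replicate 2, -0.07 without siRpl14+siRpl11 replicate 2, -0.22 without siRpl14+siRpl11 replicate 1 and -0.28 without siRpl11 replicate 1.

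The single pair of set 3, which took no part in these values, leaned the same way. There 16 of 20 naive factors with at least 5 FPKM in either library were lower in siRpl14+siRpl11 (median -0.47). So were 17 of 20 core factors (median -0.42), against 50.7% of all genes. The lean was not particular to these lists, since 12 of 14 primed epiblast genes (median -0.38) were also lower there. The same held for 11 of 15 FGF-ERK feedback genes (median -0.49) and 8 of 10 Nodal and BMP pathway genes (median -0.28). Other lists leaned up, such as S phase genes with 26 of 44 higher (median 0.06). Dppa3 was at 3.36 against 6.69 FPKM, Nr0b1 at 22.8 against 43.2, Zfp42 at 88.2 against 151, Klf2 at 67.7 against 98.1 and Nanog at 149 against 180.2 FPKM. Pou5f1 was at 639 against 961 FPKM and Sox2 at 95.3 against 127 FPKM. All 7 were lower in siRpl14+siRpl11. With 1 library each there is no replicate check, and differences of 2-fold on the log2(FPKM + 1) scale were common in this pair, with 854 of 7420 genes higher (11.5%) and 781 lower (10.5%).

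**Figure D4:**
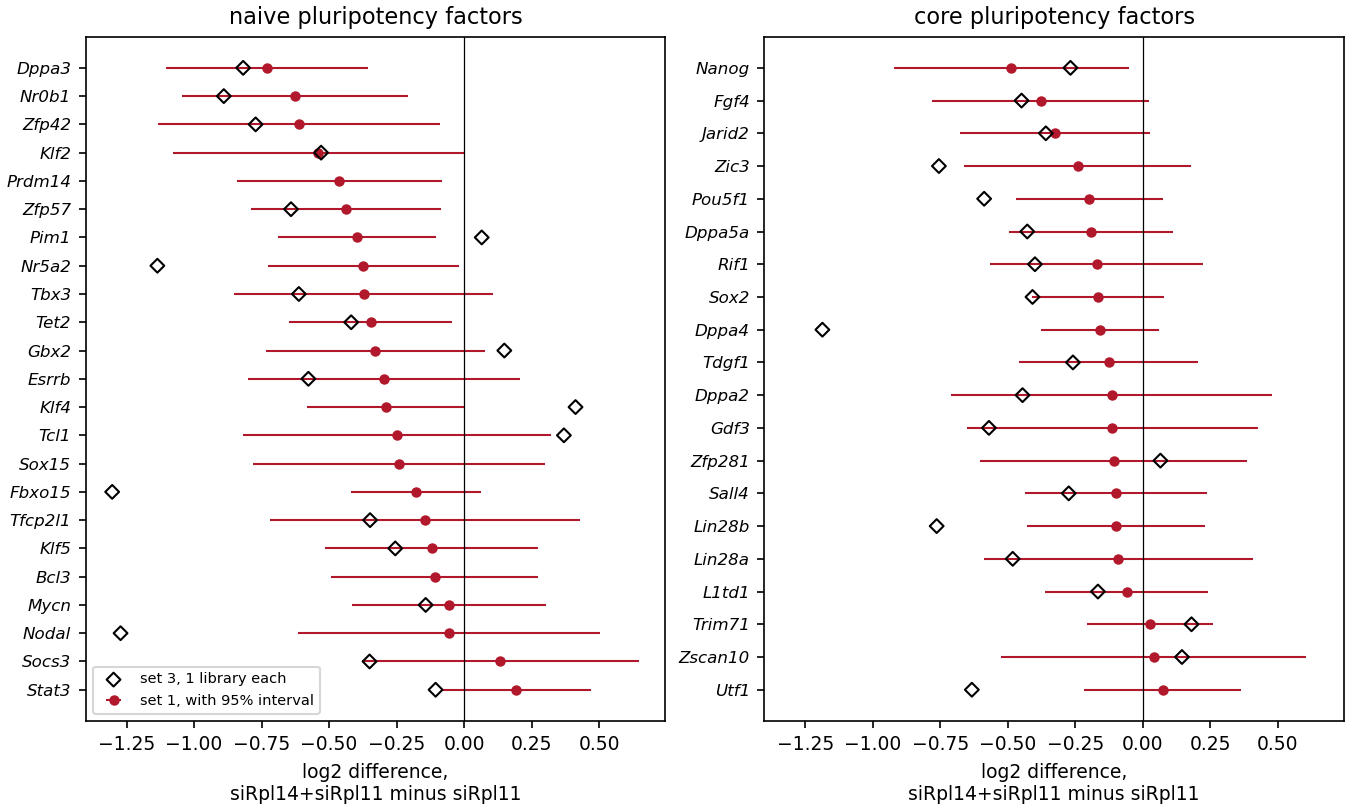
Log2 difference of siRpl14+siRpl11 minus siRpl11 for the 23 naive and 20 core pluripotency genes, with dots and lines for set 1 and its 95% intervals and open diamonds for the single pair of set 3 where a gene had at least 5 FPKM in either library. Most dots and diamonds lie below 0, and most of the intervals reach 0.

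Genes of later lineages had 0 members past the threshold with siRpl14 added to siRpl11. Of 19 primed epiblast genes 12 were below 0 (median -0.10). With siRpl14 against siNT 9 of them rose and 3 fell (background 18.1% and 13.4%). The interaction was negative in 4 of the 19 (background 2.65%). Otx2, which drives the exit towards the primed epiblast, was at 101 and 83.02 FPKM in siRpl14+siRpl11 and 91.8 and 105 FPKM in siRpl11, against 43.9 and 52.2 FPKM in siRpl14 and 9.17 and 12.6 FPKM in siNT. The siRpl14+siRpl11 and siRpl11 values overlapped above all others, with a difference of -0.10 (95% interval -0.49 to 0.30) and an interaction of -2.15, adjusted p = 0.0146. In set 3 Otx2 was at 28.4 against 42.6 FPKM. Grhl2, an epithelial transcription factor, was at 4.23 and 4.10 against 5.55 and 7.01 FPKM, -0.49 (95% interval -0.82 to -0.16), with an interaction of -1.24, adjusted p = 0.0268. Early lineage markers (8 tested, median 0.03), primitive endoderm markers (13, median 0.04) and trophectoderm markers (18, median 0.03) had medians near that of all genes. Without 1 library those medians ran from -0.04 to 0.22, from -0.21 to 0.32 and from -0.01 to 0.05, and that of the primed genes from -0.24 to 0.05. In trophectoderm, Tfap2a was at 1.19 and 1.32 against 1.85 and 2.79 FPKM and Tfap2c at 16.3 and 17.1 against 20.5 and 22.5 FPKM, without overlap, and their interactions were -1.06, adjusted p = 0.0492, and -1.04, adjusted p = 0.04.

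Among the genes of Nodal and BMP signalling (15 tested, median 0.02) stood the gene with the smallest unadjusted p of all. Lefty1, a Nodal target and Nodal antagonist, was at 79.1 and 83.4 FPKM in siRpl14+siRpl11 against 55.2 and 51.5 FPKM in siRpl11, and at 66.8 and 68.2 FPKM in siRpl14 against 20.7 and 22.3 FPKM in siNT. Its difference was 0.60 (95% interval 0.38 to 0.82) with siRpl14 added and 1.61 with siRpl14 alone (interaction -1.01, adjusted p = 0.0225). In set 3 Lefty1 was at 16.1 against 16.4 FPKM, so the single pair did not show this difference. FGF-ERK feedback genes (19, median -0.06), germline genes (21, median -0.02) and interferon response genes (12, median 0.00, and -0.16 to 0.15 without 1 library) had 0 members past the threshold. The RNA sensor gene Ddx58 was at 6.75 and 8.44 against 13.6 and 11.5 FPKM, -0.66 (95% interval -1.13 to -0.19).

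The ribosome itself, the target of both siRNAs, differed little as a list, with 0 members past the threshold. Of the 45 other large-subunit protein genes 37 were below 0 (median -0.05) and 16 had both siRpl14+siRpl11 libraries below both siRpl11 libraries (background 10.4%), and of 33 small-subunit genes 24 were below 0 (median -0.05). In set 3 the medians were -0.17 and -0.15. The lowest small-subunit member in set 1 was Rps27 at -3.92, also the lowest of the Mdm2-binding list below. Its values differed widely between libraries of 1 group. Rpl30 was at 211 and 208 FPKM in siRpl14+siRpl11 against 254 and 249.5 FPKM in siRpl11, -0.26 (95% interval -0.66 to 0.13), and Rplp1, among the most abundant, at 6273 and 6656 against 7015 and 6399 FPKM, -0.05 (95% interval -0.43 to 0.32). Rpl9 went the other way, at 1909.7 and 1936 against 1784 and 1584 FPKM, 0.19 (95% interval -0.18 to 0.56). After quantile normalization the medians were -0.02 and 0.00, so the difference of the small-subunit list from 0 depends on the scaling. Of 18 genes for Mdm2-binding proteins and 5S particle components 14 were below 0 (median -0.09), among them Npm1, the nucleolar chaperone, at 1955 and 2041 against 2418 and 2489 FPKM, -0.30 (95% interval -0.57 to -0.03).

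Among genes that build ribosomes, 0 passed with siRpl14 added to siRpl11. The medians with siRpl14 added to siRpl11 were -0.05 for 51 genes of 60S assembly, -0.02 for 45 of 40S assembly and -0.08 for 23 of RNA polymerase I and the snoRNPs, where 17, 25 and 6 rose with siRpl14 against siNT (background 18.1%). The interaction was negative in 2, 4 and 2 of them (background 2.65%). Polr1e, a subunit of RNA polymerase I, was at 11.5 and 11.8 FPKM in siRpl14+siRpl11 and 11.7 and 11.2 FPKM in siRpl11, against 17.5 and 19.9 FPKM in siRpl14 and 8.94 and 10.2 FPKM in siNT (interaction -0.87, adjusted p = 0.0362). Rrn3, an initiation factor of the same polymerase, had an interaction of -0.76, adjusted p = 0.0467. Translation factor genes (44, median -0.01), mitochondrial ribosomal protein genes (76, median -0.01) and heat shock and proteasome genes (47, median -0.03) had 0 members past the threshold with siRpl14 added to siRpl11.

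Among metabolic, stress and cell cycle genes 0 passed with siRpl14 added to siRpl11. Of 24 sterol synthesis genes 15 fell with siRpl14 against siNT (background 13.4%; median -0.66), while the median was 0.04 with siRpl14 added to siRpl11, and the interaction was positive in 7 (background 1.83%). Pmvk, phosphomevalonate kinase, was at 15.96 and 17.7 FPKM in siRpl14+siRpl11 against 15.7 and 13.2 FPKM in siRpl11, and at 17.6 and 16.98 FPKM in siRpl14 against 26.4 and 25.96 FPKM in siNT (interaction 0.78, adjusted p = 0.0421). For 32 glycolysis and hypoxia genes the medians were 0.06 and -0.75, and the first of these averaged over libraries that went opposite ways. It was 0.31 without siRpl14+siRpl11 replicate 1 and 0.35 without siRpl11 replicate 1 (31 of 32 above 0), but -0.25 without siRpl14+siRpl11 replicate 2 and -0.30 without siRpl11 replicate 2 (2 of 32 above 0). Gapdh was at 3146 and 3384 against 3452 and 2735 FPKM, 0.09 (95% interval -0.30 to 0.47). For 48 ATF4 and integrated stress response genes the medians were -0.03 and -0.50, and without 1 library the first ran from -0.13 to 0.11. Ppp1r15a, the stress-induced phosphatase subunit that restores translation, was at 26.4 and 28.2 against 34.5 and 37.99 FPKM, -0.40 (95% interval -0.74 to -0.05), and at 28.6 and 34.8 FPKM in siRpl14 against 12.2 and 15.9 FPKM in siNT (interaction -1.52, adjusted p = 0.0227).

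Of 50 S phase and 49 mitosis genes 12 and 18 fell with siRpl14 against siNT (background 13.4%), and 0 of either passed with siRpl14 added to siRpl11 (medians -0.01 and -0.03) or in the interaction. Clustered histone genes (42, median 0.08), Myc network genes (12, median -0.06) and fibroblast feeder markers (7, median 0.05) also had 0 members past the threshold. Mycn was at 156 and 122 FPKM in siRpl14+siRpl11 and 127 and 162 FPKM in siRpl11, against 106 and 109 FPKM in siRpl14 and 45.996 and 40.1 FPKM in siNT. Its siRpl14+siRpl11 and siRpl11 values overlapped, and its interaction was -1.36, adjusted p = 0.0262.

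**Figure D5:**
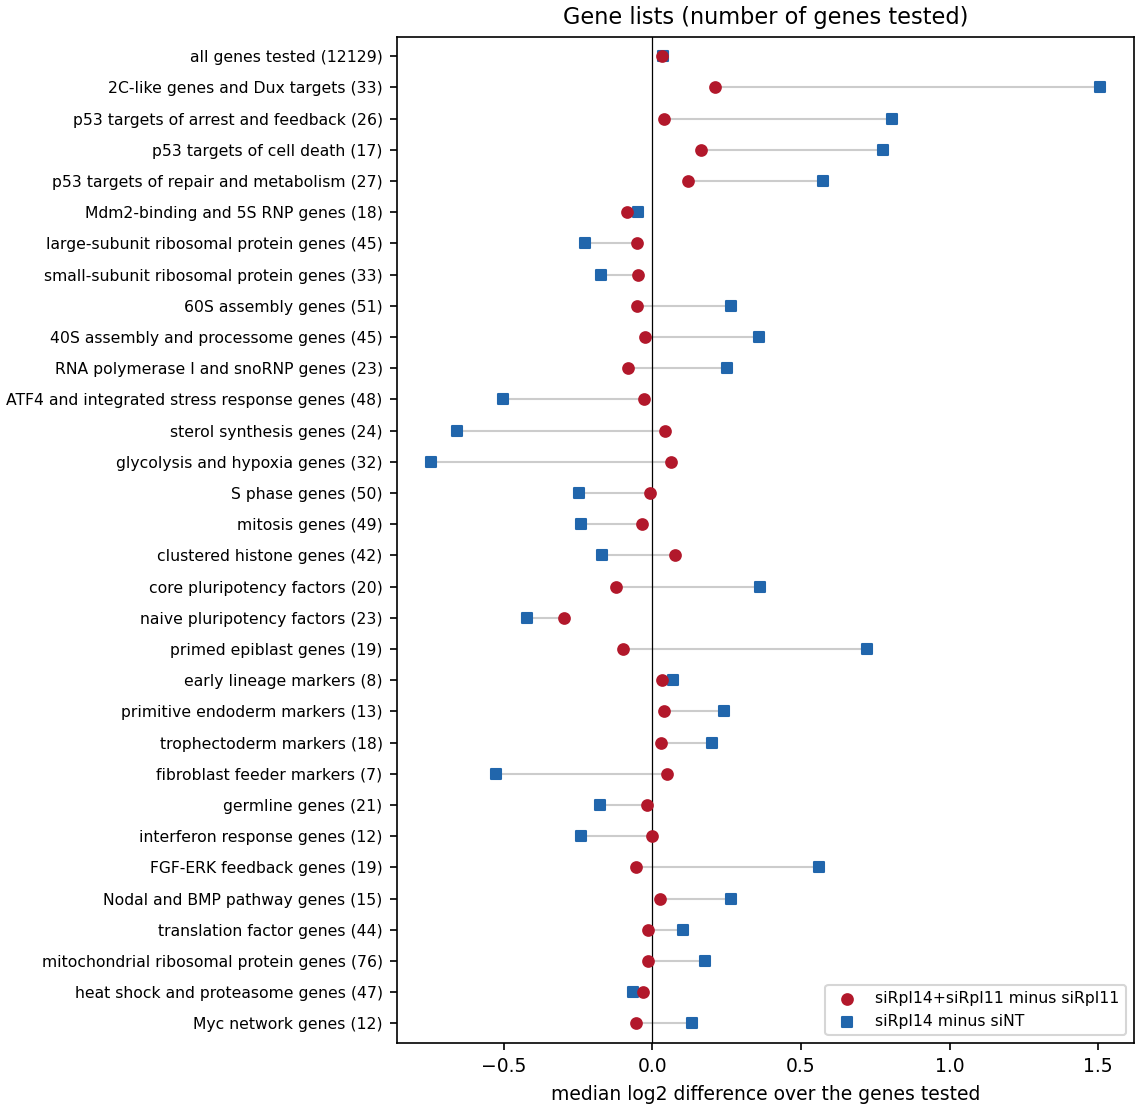
Median log2 difference of each gene list with siRpl14 added to siRpl11 (circles) and with siRpl14 against siNT (squares), with the number of genes tested in brackets. The circles lie close to 0. They are furthest above it for the 2C-like genes at 0.21 and furthest below it for the naive pluripotency factors at -0.30. Both ranks changed when certain single libraries were left out. The squares spread from -0.75 to 1.51.

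Apart from the targets, the largest differences between siRpl14+siRpl11 and siRpl11 belonged to small RNAs and copies of other genes, whose values jump between libraries of 1 group. Pisd-ps1, a pseudogene, was at 7.79 and 7.41 FPKM in siRpl14+siRpl11 against 0.0348 and 0.301 FPKM in siRpl11, and at 0.0371 and 0.0557 FPKM in siRpl14 against 8.33 and 0.194 FPKM in siNT, where the pair itself split. It was the gene that passed when either siNT library was left out. Snord118, the U8 small nucleolar RNA, was at 21.4 and 20.9 FPKM in siRpl14+siRpl11 and listed at 0 in both siRpl11 libraries, but 27.99 and 0 FPKM in siRpl14 and 26.6 and 0 FPKM in siNT, and it was the gene that passed in a fit to the 4 siRpl14+siRpl11 and siRpl11 libraries only. Rps27, a ribosomal protein gene with many copies, was at 4.45 and 4.52 against 47.9 and 139 FPKM, and at 6.42 and 5.74 FPKM in siRpl14 against 139.9 and 7.34 FPKM in siNT. Snora21 and Snora78 were below and Snord22 and Gm7334 above siRpl11 in the same unsteady way, and Mir8098 was at 17.3 FPKM in 1 siRpl14+siRpl11 library and near or at 0 in the other and in siRpl11.

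Over all genes, the set 3 pair was set beside the unadjusted calls of set 1. Of the 120 genes below 0 at an unadjusted p under 0.05 in set 1, 80 had at least 5 FPKM in set 3, and 75% of those were below 0 there, against 50.7% of all genes. Of the 266 genes above 0 at the same unadjusted threshold and with groups that did not overlap, 80 had at least 5 FPKM. Of those, 62.5% were above 0, against 49.3% of all genes. Mdm2 was at 47.5 FPKM in siRpl14+siRpl11 against 59.1 FPKM in siRpl11 in set 3, and Trp53 at 69.4 against 81.1 FPKM.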

How the data were processed

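The deposited values are FPKM per gene, made by the authors with STAR and Cuffnorm on mm9, per the submitters' processing notes. Versions, annotation and Cuffnorm's scaling were not given in the sources used. FPKM hides read depth, and no whole-read steps were found among low values, so no counts were recovered. Sets 1 and 3 lie in separate tables and were not joined in any fit. Differences were taken within each set and then set side by side.

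The 8 libraries of set 1 were fitted with limma 3.58.1 (R 4.3.3, statmod 1.5.0; trended, robust empirical Bayes) on log2(FPKM + 1), for genes that reached 1 FPKM in 2 or more libraries, with Benjamini-Hochberg adjustment at 0.05. The contrasts were siRpl14+siRpl11 minus siRpl11, siRpl14 minus siNT, and the first minus the second (interaction). The set 3 pair, with 1 library each, was described for genes with at least 5 FPKM in either. The alternatives were other pseudocounts, filters and scalings, plain empirical Bayes, a replicate block, fits without each library and a fit to the 4 libraries of a contrast. The code was tested on simulated data.

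The 31 gene lists (1044 entries, 24 not in the table; 884 distinct genes tested) and the comparison were chosen with earlier results of these data known. Named genes were the siRNA targets, the 5 largest differences each way with groups not overlapping and at least 5 FPKM, the 5 largest interactions each way past the threshold with at least 5 FPKM, up to 4 members of each list each way and 2 of highest mean, and 10 set genes (Mdm2, Cdkn1a, Trp53, Zscan4d, Zscan4c, Dux, Pou5f1, Sox2, Nanog and Otx2); not all are printed.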

Additional observations from a re-analysis of the deposited data

Results flagged for a closer look

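The difference between the siRpl14 change with siRpl11 present and that without it was tested as an interaction, and it passed in 544 of 12129 genes (limma, adjusted p under 0.05). The values in brackets are interactions on the log2(FPKM + 1) scale for the genes picked by the naming rule. They were positive for Nupr1 (2.48), Tgm2 (2.12), Gchfr (2.01), Vegfa (1.98), Slc30a3 (1.93), Inhbb (1.85) and Pmvk (0.78). Inhbb encodes a subunit of activin and inhibin and was high in siNT only. They were most negative for Mlana (-3.55), Cd80 (-3.22), Ms4a10 (-3.18), Perp (-3.11) and Nkx2-9 (-3.08), genes picked for the size of their interaction. Among p53 targets they were negative for Mdm2 (-2.44), Ptprv (-2.21) and Tap1 (-1.66). Among 2C-like genes they were negative for Usp17lb (-1.81), Tdpoz4 (-1.65), Usp17la (-1.41), Zscan4d (-1.26), Gm21319 (-1.13) and Zscan4c (-1.11). Tdpoz4 and Gm21319 were under 1 FPKM in all 4 libraries with siRpl11 and met the filter only through other libraries, so their values are limited by the low end of the scale. Among pluripotency, primed, Nodal and trophectoderm genes they were negative for Otx2 (-2.15), Tspan8 (-2.05), Dppa3 (-1.41), Mycn (-1.36), Grhl2 (-1.24), Trim71 (-1.10), Tfap2a (-1.06), Tfap2c (-1.04), Lefty1 (-1.01) and Dnmt3l (-0.93). Negative values were also found for Ppp1r15a (-1.52), Pfkfb4 (-1.26), Polr1e (-0.87) and Rrn3 (-0.76). Each of the 35 passed under 3 to 13 of the 13 to 16 other settings that could be run for it, with 0 changes of sign. These settings include the fits without 1 library, which leave 1 library in a group, so misses there say little about single genes.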

How the results depend on the processing

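With siRpl14 added to siRpl11, 0 genes passed under every setting except 3: 1 gene, higher, passed in the fit to the 4 libraries (Snord118) and 1 without either siNT library (Pisd-ps1). Leaving out 1 library gave 0 to 1 gene higher and 0 lower. The interaction count of 544 (222 positive, 322 negative) was 405 with a pseudocount of 0.1 (146 positive, 259 negative), 683 with a pseudocount of 5 (349 positive), 313 with no filter (125 and 188) and 264 with a filter at 5 FPKM (94 and 170). Leaving out 1 library gave 2 to 1199 (0 to 491 positive, 1 to 708 negative). The siRpl14 against siNT count of 3822 was 752 to 3851 without 1 library (495 to 2214 higher, 231 to 1637 lower), and with a filter at 5 FPKM 1067 fell. Quantile normalization gave 4075, of which 49.5% were higher, against 57.3%. The cause of these differences was not tested.

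Same-numbered libraries of siRpl14+siRpl11 deviated against those of siRpl11 (r = -0.43), siRpl14 (-0.45) and siNT (-0.22), while those of the other groups deviated together (siRpl11 with siRpl14 0.47, siRpl11 with siNT 0.21, siRpl14 with siNT 0.17). The labels name no shared batch and not every pair of groups deviated together, so the numbers were not taken to pair the samples. With a replicate block 0 genes passed with siRpl14 added to siRpl11, 27 (2 positive, 25 negative) in the interaction and 3193 with siRpl14 against siNT. With crossed numbers, a setting chosen after seeing the data, the block gave 0 genes with siRpl14 added to siRpl11 and 3629 (1709 positive, 1920 negative) in the interaction.

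Of 527 list medians under other settings 484 moved by less than the spread between libraries. Plain empirical Bayes, the replicate block and fits without a siRpl14 or siNT library leave each gene's siRpl14+siRpl11 minus siRpl11 difference unchanged. So does the fit to the libraries of that contrast only. There a median could move only where the genes tested changed, so the count of 484 overstates stability. Leaving out a siRpl14+siRpl11 or siRpl11 library moved some medians widely, from -0.30 to 0.35 for glycolysis and hypoxia genes. Of 1609 single-gene differences, which include those left unchanged in this way, 45 changed sign, none of them called. Read depth is unknown, and with 2 libraries a group and a median interval half-width of 0.34 (log2), smaller differences were often not detectable.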
